A study of Mus musculus with 12 samples.

Results

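Replication-dependent histone genes were taken as every gene of the deposited expression table whose symbol begins with Hist1h, Hist2h, Hist3h or Hist4h. This rule found 68 of 23224 genes, of which 59 were among the 12335 genes that passed the filter on low counts. The RNA came from cultured pre-B acute lymphoblastic leukemia cells of C57BL/6J mice, and all libraries share 2 features, the overexpressed BCR-ABL1 oncogene and a null p19 genotype. The groups were KD, with a short hairpin RNA against Phf6, KO_sg1 and KO_sg4, labelled Phf6 null and made with different single guide RNAs, and WT, with wild-type Phf6. Each group had 3 libraries. Whether a knockout group is 1 clone or a pool is not given in the sources used here. The labels are also silent on whether replicates are separate cultures, so a p-value here reflects library-to-library spread that may be no more than technical. PHF6 is a chromatin protein with PHD-type zinc fingers, and the series addresses its part in the identity of B-lineage leukemia cells.

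Replication-dependent histone genes supply the H2A, H2B, H3 and H4 proteins of the nucleosome core and the linker histone H1 while DNA is being copied. Their mRNAs are unusual in animal cells, because most end in a conserved stem-loop in place of a poly(A) tail. The stem-loop is bound by SLBP, which takes part in the formation of the mRNA's end, in its translation and in its decay once replication stops. Some of the genes can also give polyadenylated transcripts that read past the stem-loop, a form described in differentiated and non-dividing cells. Replacement histones such as H3.3 come from other genes, have ordinary polyadenylated mRNAs and are made throughout the cell cycle. Library kits for mRNA generally capture RNA by its poly(A) tail, so that histone mRNA without a tail is captured poorly.

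The stem-loop is shown first because it is the feature that separates these mRNAs from others. In the longest GENCODE transcript of each gene (annotation of GRCm38, which is not the build of the counts), a stem of 6 base pairs closed by a loop of 4 bases was found in 43 of the 68 genes. A match needed exact pairing, a stem starting with GG and a loop starting with TTT, away from the start of the transcript. A transcript without a match may hold a form that this rule misses or may be annotated as ending before it. The commonest form was present in 25 genes, and 6 forms were found in all. The 7 genes below cover 4 of these forms and recur in the results. Capitals mark the 16-base stem-loop, with 5 bases on each side.
Hist1h3b: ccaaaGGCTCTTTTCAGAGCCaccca
Hist1h2bk: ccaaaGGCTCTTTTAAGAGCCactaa
Hist1h4d: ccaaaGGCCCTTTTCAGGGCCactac
Hist1h4i: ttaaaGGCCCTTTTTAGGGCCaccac
Hist1h1c: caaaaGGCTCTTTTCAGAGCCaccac
Hist3h2a: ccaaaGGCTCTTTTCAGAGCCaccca
Hist4h4: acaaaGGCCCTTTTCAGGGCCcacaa
The annotated transcripts differ in how far they go on after the stem-loop. The transcript of Hist1h2bk ended 30 bases after it and that of Hist1h3b 51 bases after it. Those of Hist1h4i, Hist1h4d and Hist1h1c went on for 330, 770 and 840 bases, and those of Hist3h2a and Hist4h4 for 1643 and 2445 bases. Of the 43 genes with a stem-loop, 18 had a transcript ending within 50 bases of it and 18 had one reaching beyond 300 bases.

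A poly(A) signal, AATAAA or ATTAAA, lay within the last 40 bases of the annotated transcript in 16 of the 68 genes, 12 of them tested. These transcripts had a median length of 1236 bases, against 486.5 bases for those of the other histone genes. The signals of 4 such genes, in capitals, are shown because their levels differ from most of the family below.
Hist2h2be: tattattattAATAAAgttaccgattagtt
Hist3h2a: gtatatgcccAATAAAataagagtacgtgt
Hist4h4: gaggagatgaAATAAAtac
Hist1h4i: ttctgtttacATTAAAagtattctatgcta
The signal began near the annotated end in each, with 16, 28, 3 and 15 bases remaining after it in the order shown. No stem-loop was found by the exact match used here in the longest transcript of Hist2h2be, which does not show that it has none.

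Most of the genes lie together. On GRCm38, 54 are on chromosome 13 (cluster 1), 10 on chromosome 3 (cluster 2), 3 on chromosome 11 (cluster 3) and 1, Hist4h4, on chromosome 6. Promoters of 300 bases, from 250 before to 50 after the start, were available from RefSeq (GRCm38.p6) for 61 of them. A gene was counted for a motif if any of its promoters held it. The letters CCAAT on either strand were found for 85.2% of these genes, against 41.1% of 27025 RefSeq genes with such a promoter. They were found for all H1, H2A, H2B and H3 genes and for 25% of the H4 genes. TATAAA on either strand was found for 57.4%, against 15.7% of the RefSeq genes. The octamer ATTTGCAT on either strand, the sequence bound by POU-domain factors such as OCT-1, was found for 23.0%, against 1.97% of the RefSeq genes. It was found for H2A and H2B genes (41.2% and 43.8%) and for no H1, H3 or H4 gene. Some H2A and H2B genes have overlapping promoters on opposite strands, such as Hist1h2ah and Hist1h2bk. A motif in the shared stretch is counted for both genes, so these genes are not separate cases. None of the 3 motifs can overlap another by more than a few end bases. The promoters of an H2A gene that was higher in KD than in WT and of an H2B gene that was lower are shown, with the matches in capitals; both hold the octamer, so this letter string did not separate them. The first is Hist3h2a, chr11:58954435-58954734 on the plus strand, and the second Hist1h2bk, chr13:22035571-22035870 on the plus strand.
Hist3h2a: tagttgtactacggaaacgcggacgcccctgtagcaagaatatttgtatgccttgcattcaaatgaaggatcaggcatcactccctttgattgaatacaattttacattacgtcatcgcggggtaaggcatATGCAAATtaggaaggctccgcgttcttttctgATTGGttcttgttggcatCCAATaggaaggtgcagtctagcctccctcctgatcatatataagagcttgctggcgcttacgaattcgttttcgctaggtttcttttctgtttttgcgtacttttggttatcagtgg
Hist1h2bk: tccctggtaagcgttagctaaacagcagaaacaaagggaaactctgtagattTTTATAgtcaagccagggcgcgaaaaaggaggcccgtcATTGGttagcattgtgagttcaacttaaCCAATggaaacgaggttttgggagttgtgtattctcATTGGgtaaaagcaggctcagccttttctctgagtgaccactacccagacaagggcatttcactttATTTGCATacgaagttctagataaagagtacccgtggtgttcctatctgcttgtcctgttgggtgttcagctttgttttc
Copies of one histone type are close to identical in places. The median histone transcript shared 46.4% of its 50-base windows with another histone gene, 30 of the 68 shared over 50% and 10 under 5%. Hist2h2be and Hist4h4 shared none and Hist3h2a 2.00%, so reads of 50 bases or more from these 3 genes would rarely match another histone gene exactly. The read length is not stated, and matches outside the family were not examined. Values of single genes with high sharing depend on how reads were divided among copies.

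Library totals ran from 20382328 to 36032369 estimated counts. Levels below are in CPM, with library totals adjusted by TMM factors, and are not corrected for length, so they compare libraries and not genes. A count of 0 in a library allows up to 0.0833 to 0.147 CPM, taking 3 counts as the floor, for counting error only. Phf6 had 9.08, 8.98 and 8.29 CPM in KD, 3.23, 3.24 and 3.74 in KO_sg1, 44.2, 29.5 and 36.1 in KO_sg4 and 34.2, 33.9 and 35.3 in WT. Thus Phf6 RNA was lower in KD and KO_sg1 and was not called changed in KO_sg4 (log2 fold change 0.09 ± 0.11, edgeR adjusted p = 0.527), and RNA level does not check the genotype of the libraries labelled KO_sg4, since a small edit need not lower it. All 8 markers of B-cell precursors were at 1 CPM or more in every library, and none of 5 T-cell markers was; Epcam was at 0 throughout, and T-cell and erythroid markers summed to at most 2.06 and 4.35 CPM in any library. Summed over the list, B-precursor markers ran from 14202 to 14736 CPM in KD, from 4745 to 6378 over the knockout libraries, and from 5922 to 6333 in WT. Myeloid markers (6 genes, 1 of them at 1 CPM or more throughout) summed to 57.4 to 58.9 CPM in KD, 5.07 to 8.29 over the knockout libraries and 14.5 to 15.4 in WT, and stromal and epithelial markers (5 genes, 1 of them at 1 CPM or more throughout) to 91.9 to 92.8 in KD, 25.8 to 30.7 over the knockout libraries and 33.2 to 34.7 in WT; their part in the results on histone genes was not tested.

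The summed level of the histone family was lower in KD than in WT and averaged higher in KO_sg1, and the histone types differed in how far they took part. The 68 genes together had 108, 94.6 and 112 CPM in KD, 235, 219 and 343 in KO_sg1, 168, 260 and 129 in KO_sg4 and 169, 121 and 220 in WT. The means were 105 ± 9.05 CPM in KD, 266 ± 67.7 in KO_sg1, 186 ± 67.5 in KO_sg4 and 170 ± 49.6 in WT (SD, n = 3 each). All KD libraries were below all WT libraries, and the KO_sg4 and WT ranges overlapped, as did those of KO_sg1 and WT, where KO_sg1 replicate 2 lay just under WT replicate 3. The ratio of means, on the log2 scale, was -0.70 for KD against WT, 0.64 for KO_sg1 against WT and 0.13 for KO_sg4 against WT; sums over the family are given with no test. In bulk RNA, fewer cells in S phase and less histone RNA per cell cannot be told apart.

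The family sum moved with the share of each library taken by Rn45s, the 45S ribosomal RNA precursor, which has no poly(A) tail of the mRNA kind. Rn45s held 1.05%, 0.665% and 1.28% of the counts in KD, 3.57%, 3.64% and 6.40% in KO_sg1, 2.56%, 4.36% and 1.22% in KO_sg4 and 2.43%, 0.915% and 3.94% in WT. The KO_sg1 library with the most Rn45s had the highest histone sum of the 12, and the KD library with the least had the lowest. Within KD, KO_sg4 and WT the order of the 3 libraries was the same for both measures; within KO_sg1, replicates 1 and 2 were in the opposite order. The KD libraries had histone sums of 94.6 to 112 CPM, below those of the other 2 libraries with Rn45s shares in the same range, KO_sg4 replicate 3 at 129 CPM and WT replicate 2 at 121 CPM.

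**Figure D1:**
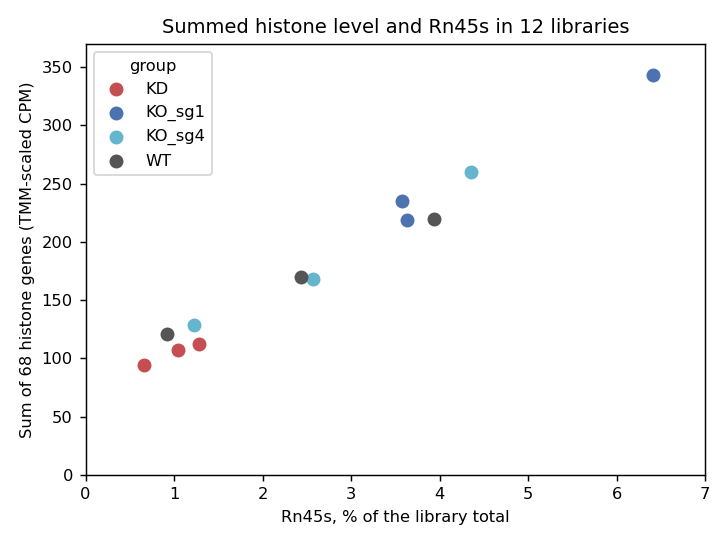
Summed level of the 68 histone genes (y axis, TMM-scaled CPM) against Rn45s as a percentage of the library total (x axis) in each of the 12 libraries, coloured by group. The 3 KD libraries sit at the lower left, between 94.6 and 112 CPM, and KO_sg1 replicate 3 at the upper right, at 343 CPM and 6.40% Rn45s.

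The same movement was present among libraries of a single group. In WT, replicate 3 had 4.32 times the Rn45s of replicate 2, and 52 of the 59 tested histone genes were higher in it, with a median ratio of 2.59. In KO_sg4, replicate 2 had 3.76 times the Rn45s of replicate 3, and 55 of 59 were higher, with a median ratio of 2.52. The corresponding ratios were 1.90 for Rn45s and 1.60 for the histone median in KO_sg1, with 49 of 59 higher, and 1.95 and 1.2 in KD, with 40 of 59 higher. Genes of S phase did not move this way: in the same pairs of libraries their median ratio was 0.99 in KD, 0.997 in KO_sg1, 0.929 in KO_sg4 and 1.01 in WT. In the WT pair, histone genes with a poly(A) signal at the annotated end had a median ratio of 1.44, against 2.66 for those without; the same medians were 1.95 and 2.68 in KO_sg4, 1.36 and 1.67 in KO_sg1, and 1.05 and 1.21 in KD. These ratios were computed with 0.1 CPM added to each value and have no test, since each compares single libraries.

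In the KD libraries most H1, H2B, H3 and H4 genes were lower than in the WT libraries, while H2A genes were mixed and 2 genes of the family were higher. Of the 59 tested genes 33 were lower (55.9%, against 40.4% of all genes tested) and 2 were higher (3.39%, against 37.2%) at an adjusted p under 0.05. The median log2 fold change was -1.35, against -0.01 over all genes tested. With the log2 summed level of RNAs lacking a poly(A) tail, mostly Rn45s, as a covariate, 10 were lower and 5 higher (38.4% and 35.2% of all genes), with a median of -0.24, and among the libraries with under 1.5% Rn45s (all 3 of KD and 1 of WT) 17 of 61 were lower and 6 higher (39.2% and 37.3%), with a median of -0.39. Both are given below as the covariate and the low-Rn45s libraries; in the second the lone WT library is assumed to vary as the KD libraries do. By type, without the covariate, 3 of 5 H1 genes, 3 of 16 H2A genes, 10 of 13 H2B genes, 9 of 12 H3 genes and 8 of 13 H4 genes were lower. All 3 KD libraries were below all 3 WT libraries for 26 of the 59 genes (43.7% of all genes tested behaved so) and above them for 3 (40.8% of all genes). Without WT replicate 3, the WT library with the most Rn45s, 18 were lower; without any other single library at least 23 were.

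**Figure D2:**
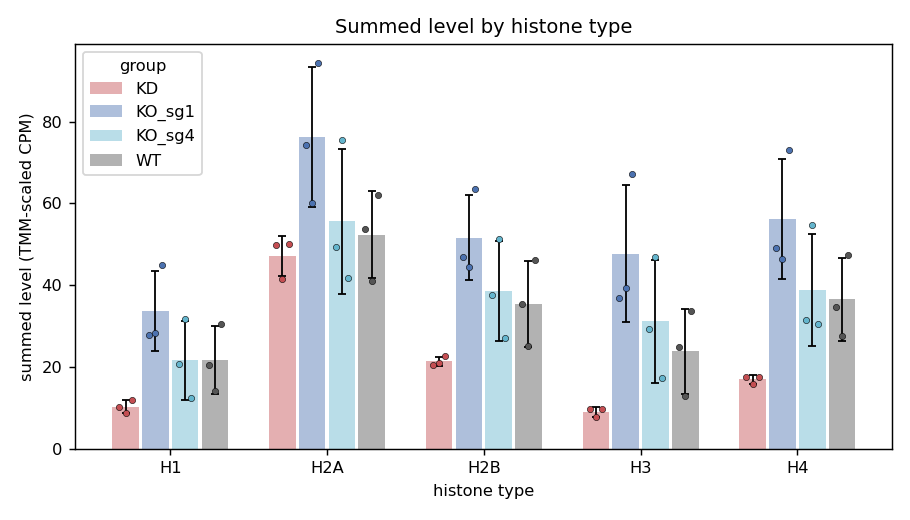
Summed level of each histone type in the 4 groups (y axis, TMM-scaled CPM; bars are means of 3 libraries, error bars SDs, points single libraries). H3 genes summed to 9.02 CPM in KD, 47.8 in KO_sg1, 31.2 in KO_sg4 and 23.9 in WT, and H2A genes to 47.1, 76.3, 55.6 and 52.3 CPM in the same order of groups.

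Among genes of the linker histone H1, which binds where DNA enters and leaves the nucleosome, the type as a whole had 10.2, 8.79 and 11.9 CPM in KD, and 20.6, 14 and 30.5 in WT. All KD values lay below all WT values. Hist1h1c, the gene of H1.2, had 5.99, 4.98 and 6.61 CPM in KD, 12, 10.9 and 16.1 in KO_sg1, 7.8, 12.7 and 6.46 in KO_sg4 and 11, 9.1 and 13.7 in WT. It fell in KD, where every library was below every WT library (log2 fold change -0.94 ± 0.23, adjusted p = 0.00206). Hist1h1e, the gene of H1.4, had 1.62, 0.868 and 1.55 CPM in KD, 5.54, 6.1 and 10.9 in KO_sg1, 4.95, 7.33 and 2.04 in KO_sg4 and 3.91, 1.91 and 5.51 in WT. Its KD values did not overlap those of WT either (log2 fold change -1.45 ± 0.49, adjusted p = 0.0145), but the call was lost without WT replicate 3 (log2 fold change -1.07, adjusted p = 0.0811) and without KD replicate 2 (-1.21, adjusted p = 0.0601). Its log2 fold change was -0.23 with the covariate (adjusted p = 0.304) and -0.47 in the low-Rn45s libraries (adjusted p = 0.149), and limma-voom did not call it (adjusted p = 0.0501).

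H3 was the type with the largest difference in its sum, a log2 ratio of -1.40 between the KD and WT means. By gene, the median log2 fold change was -1.57 for H3 and -1.80 for H4, and the H2B sum holds Hist2h2be, which was called higher in KD. Hist1h3b, from cluster 1, had 2.0, 1.47 and 1.58 CPM in KD, 6.95, 6.48 and 11.2 in KO_sg1, 5.14, 10.8 and 3.16 in KO_sg4 and 6.08, 2.24 and 7.9 in WT. Its KD libraries were all below its WT libraries, among which replicate 2 was far below the others, and the gene fell in KD (log2 fold change -1.66 ± 0.49, adjusted p = 0.0065), though it was not called with the covariate (-0.40, adjusted p = 0.0983) or in the low-Rn45s libraries (-0.39, adjusted p = 0.149). Hist2h3b, from cluster 2, had 1.44, 1.13 and 1.46 CPM in KD, 5.82, 6.01 and 12.5 in KO_sg1, 5.45, 6.99 and 1.73 in KO_sg4 and 3.74, 1.74 and 5.63 in WT. It was called lower (log2 fold change -1.44 ± 0.53, adjusted p = 0.023), a call that did not hold without WT replicate 3 (log2 fold change -1.0, adjusted p = 0.126) or without any 1 of the KD libraries (adjusted p 0.0523 to 0.0693). Its log2 fold change was -0.12 with the covariate (adjusted p = 0.7) and -0.35 in the low-Rn45s libraries (adjusted p = 0.251), and limma-voom did not call it (adjusted p = 0.0888). Hist2h3c2 had 0, 0.566 and 0.538 CPM in KD, and 2.09, 0.77 and 3.01 in WT (log2 fold change -2.42 ± 0.66, adjusted p = 0.0041), and was called whichever single library was left out, but not with the covariate (-1.35, adjusted p = 0.0642) or in the low-Rn45s libraries (-1.09, adjusted p = 0.108). Hist1h3i had 0.593, 0 and 0 CPM in KD, and 1.37, 0.837 and 0.821 in WT; its call (log2 fold change -2.25 ± 0.94, adjusted p = 0.0405) was lost without any 1 WT library, without KD replicate 2 or 3 (adjusted p 0.0516 to 0.136), with the covariate (-1.47, adjusted p = 0.226), by DESeq2 (adjusted p = 0.0972) and with library totals (adjusted p = 0.0653). The H3 gene Hist2h3c1, with a poly(A) signal at its annotated end, had 1.69, 1.02 and 0.918 CPM in KD, 1.01, 0.678 and 0.613 in KO_sg1, 0.526, 1.17 and 0.272 in KO_sg4 and 0.858, 0.669 and 0.782 in WT. It went the other way with a log2 fold change of 0.66 ± 0.37 that was not called (adjusted p = 0.122).

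The H4 genes, which code for one and the same protein, differed in how far they fell in KD. Hist1h4d had 0.811, 0.754 and 0.855 CPM in KD, 5.21, 4.77 and 7.81 in KO_sg1, 3.1, 5.77 and 1.84 in KO_sg4 and 2.95, 1.41 and 5.0 in WT. The KD values were close together and below all others, and the gene fell (log2 fold change -1.92 ± 0.49, adjusted p = 0.00263). Hist1h4i, with a poly(A) signal in its annotated transcript, had 9.67, 8.6 and 9.02 CPM in KD, 16.7, 14.6 and 18 in KO_sg1, 10.9, 17.4 and 17.7 in KO_sg4 and 16.1, 17.1 and 16.4 in WT. It fell by less (log2 fold change -0.86 ± 0.15, adjusted p = 0.000133), and its KD and WT values each varied little. Other H4 genes with such a signal had log2 fold changes of -3.12 (Hist1h4j), -2.05 (Hist1h4h and Hist2h4), -1.02 (Hist1h4a, not called) and 0.33 (Hist4h4, not called). Hist1h4j had 0, 0.0754 and 0.253 CPM in KD, and 0.721, 0.502 and 1.84 in WT (log2 fold change -3.12 ± 0.75, adjusted p = 0.00171), and Hist1h4f had 0.374, 0.226 and 0.57 CPM in KD, and 2.13, 0.602 and 3.13 in WT (log2 fold change -2.26 ± 0.57, adjusted p = 0.00234). For both, the KD libraries held few counts, yet the groups did not overlap. In the low-Rn45s libraries the log2 fold change of Hist1h4f was -0.58 and was not called (adjusted p = 0.288). Hist1h4n had 0.562, 0.604 and 0.222 CPM in KD, 3.6, 2.92 and 4.35 in KO_sg1, 0.124, 1.03 and 0.986 in KO_sg4 and 1.92, 0.703 and 2.5 in WT; it was also lower in KD (log2 fold change -1.88 ± 0.57, adjusted p = 0.00779), but not with the covariate (-1.22, adjusted p = 0.121) or in the low-Rn45s libraries (-0.61, adjusted p = 0.253).

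Of the H2B genes, Hist1h2bc had 3.96, 3.43 and 4.37 CPM in KD, 10.7, 8.28 and 11.2 in KO_sg1, 7.55, 8.75 and 8.26 in KO_sg4 and 8.79, 8.2 and 10.7 in WT. The KD values were all below the WT values, which were close together, and the gene had the smallest adjusted p of the family (log2 fold change -1.23 ± 0.14, adjusted p = 2.43e-06). Hist1h2bc is among the genes listed as known to give polyadenylated mRNA. Its annotated transcript has no signal near its end, so it is counted below among the genes without one. Hist1h2bk, whose short transcript ends near its stem-loop and which was picked after its values were seen, had 2.03, 1.81 and 1.74 CPM in KD, 6.59, 7.13 and 7.64 in KO_sg1, 5.33, 8.51 and 4.21 in KO_sg4 and 6.87, 3.28 and 4.77 in WT. It fell as well (log2 fold change -1.41 ± 0.28, adjusted p = 0.000394). Hist1h2bf had 0.218, 0 and 0 CPM in KD, and 1.06, 0.402 and 0.704 in WT (log2 fold change -3.15 ± 0.88, adjusted p = 0.00479), and Hist1h2bj had 0.999, 0.453 and 0.57 CPM in KD, and 2.09, 1.67 and 2.27 in WT (log2 fold change -1.54 ± 0.44, adjusted p = 0.00521). Neither overlapped between the groups, and Hist1h2bj was not called with the covariate (-0.82, adjusted p = 0.0551). Hist2h2bb had 0.187, 0.189 and 0.285 CPM in KD, and 1.2, 0.167 and 1.56 in WT, with WT replicate 2 below every KD library; its call (log2 fold change -2.09 ± 0.75, adjusted p = 0.0212) was lost without WT replicate 1 or 3 and without KD replicate 1 or 2 (adjusted p 0.0557 to 0.103), by limma-voom (adjusted p = 0.127) and with the covariate (-0.52, adjusted p = 0.273), and in the low-Rn45s libraries its sign turned (0.41, adjusted p = 0.629). Hist1h2bl, at 0.281, 0 and 0 CPM in KD, and 0, 0.368 and 2.35 in WT, overlapped and was not called (log2 fold change -3.06 ± 1.34, adjusted p = 0.0508).

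The H2A sum averaged 47.1 ± 4.83 CPM in KD and 52.3 ± 10.6 CPM in WT (SD, n = 3 each), a difference smaller than the SD in WT, with a log2 ratio of -0.15. Hist3h2a, which was higher in KD, supplied 16.4 CPM of the KD mean and 10.3 CPM of the WT mean. Without Hist3h2a and Hist2h2be, the 2 genes called higher in KD, the log2 ratio of the whole family's sum was -0.98, against -0.70 with them. Hist1h2ap had 10.9, 7.54 and 7.28 CPM in KD, 15, 12.9 and 13.2 in KO_sg1, 8.58, 11.9 and 10.4 in KO_sg4 and 12.1, 6.86 and 10.7 in WT, with overlapping groups and a log2 fold change of -0.20 ± 0.20 (adjusted p = 0.379). Hist1h2ai, by contrast, had 0.843, 0 and 0.253 CPM in KD, and 1.92, 1.71 and 2.58 in WT and fell (log2 fold change -2.41 ± 0.72, adjusted p = 0.00721), but was not called with the covariate (-1.64, adjusted p = 0.0626). As a share of family counts, which is not a share of molecules, H2A genes held 45% in KD, 28.7% in KO_sg1, 29.9% in KO_sg4 and 30.8% in WT.

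**Figure D3:**
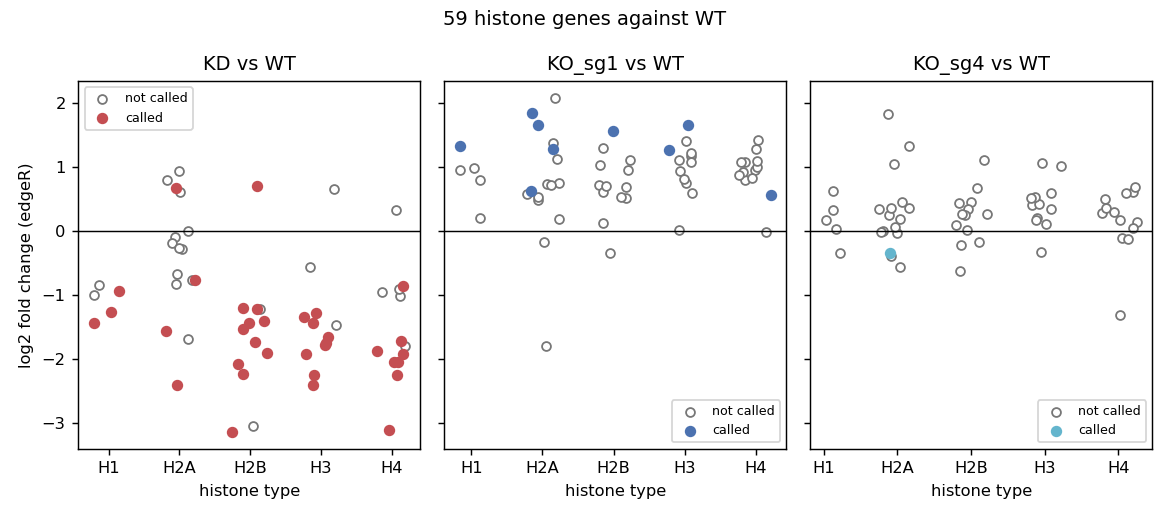
Log2 fold changes against WT (y axis) of the 59 tested histone genes, by histone type (x axis), for KD, KO_sg1 and KO_sg4; filled points passed an adjusted p under 0.05, and horizontal scatter within a type is arbitrary. KD has 33 filled points below 0 and 2 above it, KO_sg1 has 9 above it, and KO_sg4 has 1 below it.

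Both genes that rose in KD are annotated with long transcripts that end in a poly(A) signal. Hist3h2a, an H2A gene of cluster 3, had 17, 15.6 and 16.6 CPM in KD, 9.74, 8.19 and 9.54 in KO_sg1, 6.5, 9.63 and 8.43 in KO_sg4 and 9.68, 11.1 and 10.1 in WT. Every KD value was above the values of all 9 other libraries, and the gene rose (log2 fold change 0.67 ± 0.12, adjusted p = 0.000173). Hist2h2be, an H2B gene of cluster 2, had 9.39, 11.8 and 11.1 CPM in KD, 5.17, 5.16 and 5.3 in KO_sg1, 6.22, 5.04 and 5.61 in KO_sg4 and 6.97, 5.42 and 7.51 in WT. Here too all KD values exceeded all others (log2 fold change 0.70 ± 0.13, adjusted p = 0.00018). Both calls held whichever single library was left out and under every other processing that was run. Within WT, Hist3h2a was not highest in the library with the most Rn45s, unlike most of the family.

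Hist4h4, the H4 gene of cluster 4, had 2.59, 2.72 and 2.31 CPM in KD, 2.59, 2.86 and 3.62 in KO_sg1, 2.45, 3.13 and 1.97 in KO_sg4 and 1.82, 2.34 and 1.88 in WT. The ranges of KD and WT overlapped, with KD replicate 3 under WT replicate 2, and it was not called (log2 fold change 0.33 ± 0.19, adjusted p = 0.124). Hist1h2ae had 1.59, 2.34 and 1.74 CPM in KD, 3.36, 2.59 and 2.79 in KO_sg1, 1.73, 1.66 and 2.11 in KO_sg4 and 1.85, 1.67 and 2.15 in WT, and in KD against WT its log2 fold change was -0.01 ± 0.19 (adjusted p = 0.974). The 16 genes with a poly(A) signal in the annotated end summed to 50.1, 48.9 and 51 CPM in KD, 60.3, 55.3 and 75.8 in KO_sg1, 44.9, 62.7 and 46.9 in KO_sg4 and 54.2, 50.2 and 64.1 in WT. The other 52 summed to 57.4, 45.7 and 61.1 CPM in KD, 175, 163 and 267 in KO_sg1, 124, 198 and 82.1 in KO_sg4 and 115, 70.4 and 156 in WT. Between the means of KD and WT the log2 ratio was -0.17 for the first set and -1.06 for the second. Hist3h2a and Hist2h2be, the 2 genes called higher, supplied 16.4 and 10.8 CPM of the first set's KD mean of 50.0 CPM. In WT they supplied 10.3 and 6.63 CPM of 56.2 CPM, so the ratio of the first set rests largely on them. By gene, the median log2 fold change was -0.90 in the first set and -1.45 in the second. The first set was not uniform: 2 of its 12 tested genes were higher in KD and 6 were lower, against 0 higher and 27 lower among 47 in the second, where no gene was higher at an unadjusted p under 0.05 either. DESeq2 and limma-voom each also called 2 of the 59 genes higher, and 34 and 27 lower. By position, the log2 ratio of the sums was -1.0 for cluster 1, -0.25 for cluster 2, 0.67 for cluster 3 and 0.33 for Hist4h4. The cluster 2 sum holds Hist2h2be, and the only tested gene of cluster 3 is Hist3h2a, so these sums do not separate position from single genes. By gene, the median log2 fold change was -1.43 in cluster 1 and -0.83 in cluster 2, where 7 of 9 tested genes had values below 0.

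**Figure D4:**
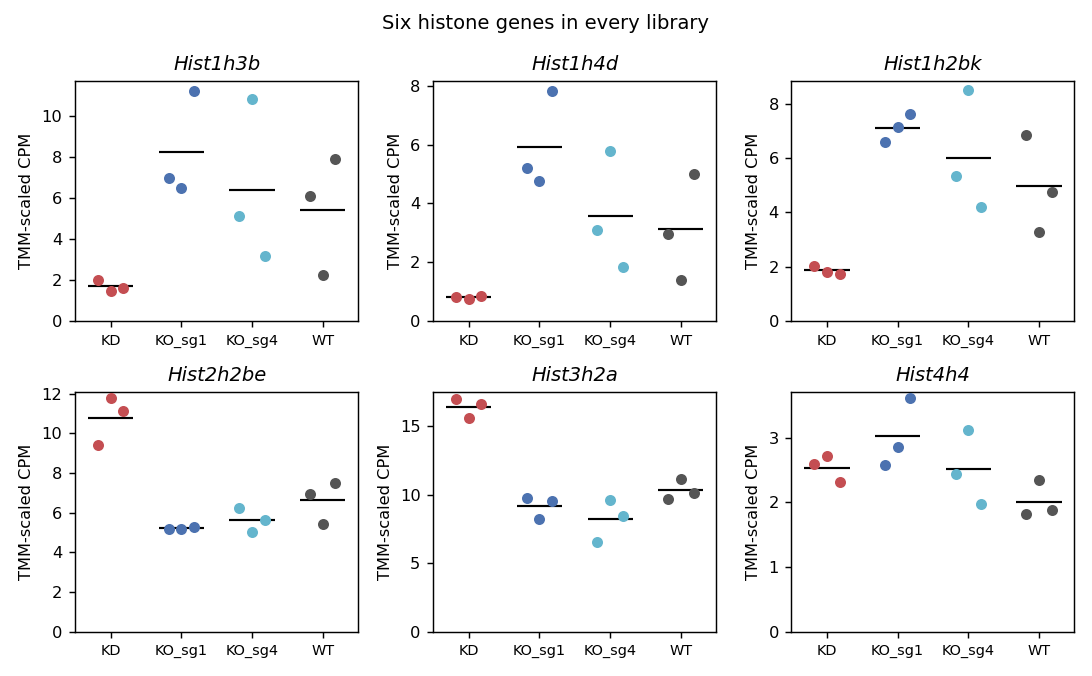
TMM-scaled CPM (y axes, each from 0) of 6 histone genes in all 12 libraries by group (points, replicates 1 to 3 from left to right; lines, means). In the upper row Hist1h3b, Hist1h4d and Hist1h2bk are lowest in KD, and in the lower row Hist2h2be and Hist3h2a are highest in KD (9.39 to 11.8 and 15.6 to 17 CPM) and Hist4h4 overlaps between KD and WT.

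The KD difference was smaller when RNA lacking a poly(A) tail entered the fit. Among the 10 genes still lower were Hist1h2bc (-1.03), Hist1h4i (-0.85), Hist1h2bk (-0.90), Hist1h4d (-0.73) and Hist1h1c (-0.41), which was the sole H1 gene among them. Hist3h2a (0.69) and Hist2h2be (0.79) stayed higher with nearly the same values. Because KD libraries also have the least Rn45s on average, the covariate and the group overlap in part.

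**Figure D5:**
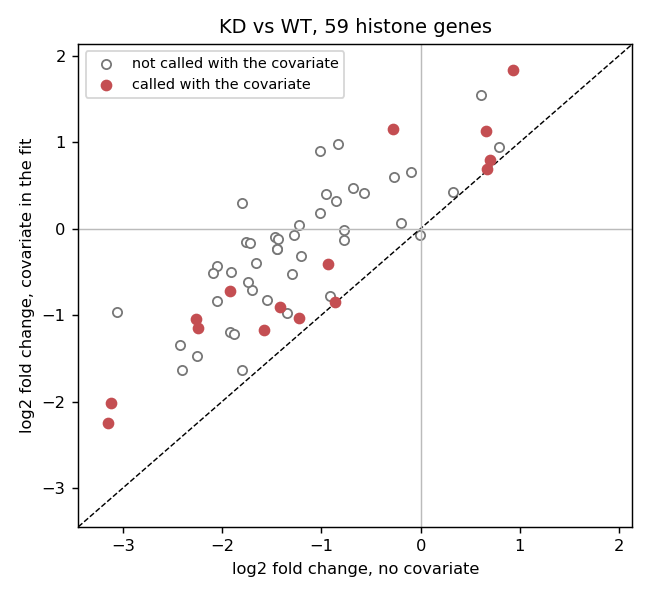
Log2 fold changes of the 59 histone genes in KD against WT without (x axis) and with (y axis) the level of RNA lacking a poly(A) tail in the fit; filled points passed an adjusted p under 0.05 with the covariate, and the dashed line marks equal values. Most points lie above the line, with a median of -1.35 on the x axis and -0.24 on the y axis, and Hist3h2a and Hist2h2be lie near the line at the upper right.

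In KO_sg1, most histone genes had larger values than in WT, but the share that passed the test was no larger than among all genes. Of 59 genes 9 were higher (15.3%, against 16.9% of all genes tested) and 0 were lower (against 21.9%), by edgeR; at an unadjusted p under 0.05, 25 were higher and 1 was lower, and DESeq2 and limma-voom called 13 and 16 higher and 0 lower. The median log2 fold change was 0.92, against -0.02 over all genes, with 55 values above 0. All KO_sg1 values exceeded all WT values for 20 genes (26% of all genes did so) and lay below them for 1 (30.4% of all genes). The number of higher genes was 3 with the covariate (10.7% of all genes), 5 without WT replicate 2, 26 without WT replicate 3, and 17, 24 and 16 without KO_sg4 replicates 1, 2 and 3, which enter through the shared estimate of spread.

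Hist1h2bj, an H2B gene, had 6.14, 4.18 and 7.81 CPM in KO_sg1, and 2.09, 1.67 and 2.27 in WT. The groups did not overlap, and its rise (log2 fold change 1.56 ± 0.34, adjusted p = 0.00239) was called whichever single library was left out and with the covariate. Hist2h2ac, an H2A gene, had 1.86, 0.972 and 2.34 CPM in KO_sg1, and 0.858, 0.201 and 0.508 in WT and rose too (log2 fold change 1.65 ± 0.43, adjusted p = 0.00797), though not with the covariate (1.01, adjusted p = 0.075). Hist1h3f had 2.06, 2.3 and 3.68 CPM in KO_sg1, and 1.06, 0.301 and 1.17 in WT (log2 fold change 1.65 ± 0.48, adjusted p = 0.0147), and was not called without WT replicate 2 (adjusted p = 0.06) or KO_sg1 replicate 3 (adjusted p = 0.0577). Hist1h1b, the gene of H1.5, had 3.23, 3.18 and 5.24 CPM in KO_sg1, and 1.34, 0.703 and 2.58 in WT (log2 fold change 1.33 ± 0.42, adjusted p = 0.0224), and was not called without WT replicate 1 or 2 or KO_sg1 replicate 3 (adjusted p 0.0736 to 0.0891), nor with the covariate, where the log2 fold change was 0.54 (adjusted p = 0.126).

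Hist1h2ac had 0.647, 0.265 and 0.613 CPM in KO_sg1, and 0.0687, 0.134 and 0.195 in WT (log2 fold change 1.84 ± 0.63, adjusted p = 0.0317), and Hist1h2ak had 3.03, 3.3 and 5.69 CPM in KO_sg1, and 1.79, 0.502 and 2.66 in WT (log2 fold change 1.27 ± 0.47, adjusted p = 0.0456). Each lost its call without any of several libraries: WT replicate 1 or 2 and KO_sg1 replicate 1 or 3 for Hist1h2ac (adjusted p 0.0763 to 0.12), and any of 8 libraries for Hist1h2ak (0.0521 to 0.164). With the covariate neither was called (Hist1h2ac 1.16, adjusted p = 0.205, and Hist1h2ak 0.33, adjusted p = 0.193). Limma-voom did not call Hist1h2ac (adjusted p = 0.057). Hist1h2ak was not called by DESeq2 (adjusted p = 0.0691), with library totals (adjusted p = 0.0581) or with the replicate number as a block (adjusted p = 0.0581). Hist1h2ae, whose values are above, rose by a smaller step (log2 fold change 0.62 ± 0.18, adjusted p = 0.0146), not called without WT replicate 2 (0.0624) or KO_sg1 replicate 1 (0.0711). Hist4h4 also rose (log2 fold change 0.56 ± 0.19, adjusted p = 0.0288), not called without WT replicate 1 or 3 or KO_sg1 replicate 3 (0.0847 to 0.111) or with the covariate (0.47, adjusted p = 0.142).

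In KO_sg4, no histone gene was called higher than in WT by edgeR (18% of all genes were), and 1 was lower (22% of all genes). At an unadjusted p under 0.05, 2 were higher and 2 lower; DESeq2 called 0 higher and limma-voom 1. The median log2 fold change was 0.27, with 45 of 59 above 0. The gene called lower was Hist3h2a, whose values are given above, with no overlap between the groups (log2 fold change -0.35 ± 0.13, adjusted p = 0.0438). This call was lost in 14 of the other settings run, including when most single libraries were left out and with the covariate (-0.35, adjusted p = 0.0532); its adjusted p was 0.157 without WT replicate 2 and 0.145 without KO_sg4 replicate 1, where the log2 fold change shrank to -0.20. Without KO_sg4 replicate 2, 3 genes were lower. With the covariate 3 genes were higher and 1 lower (17.5% and 21.5% of all genes). The groups did not overlap for 2 genes with all KO_sg4 values higher (20.9% of all genes) and 1 with all lower (25.4% of all genes).

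Between the guides, KO_sg4 had lower values than KO_sg1 for 56 of 59 genes (median log2 fold change -0.58), yet only 2 were called lower (3.39%, against 13.4% of all genes) and 0 higher (against 13.8%) by edgeR, with 5 and 0 at an unadjusted p under 0.05. DESeq2 and limma-voom called 4 and 3 lower and 0 higher. Hist1h4n was lower in every KO_sg4 library than in every KO_sg1 library (log2 fold change -2.40 ± 0.51, adjusted p = 0.00302), a call kept in every setting run. Hist1h2ae also did not overlap (log2 fold change -0.65 ± 0.18, adjusted p = 0.017), but was not called without KO_sg1 replicate 1 (-0.54, adjusted p = 0.0806) or KO_sg4 replicate 1 (-0.61, adjusted p = 0.0545). Without KO_sg4 replicate 2, which had the most Rn45s of its group, 23 genes were lower; the number was 6 without KO_sg1 replicate 2 and 1 without KO_sg1 replicate 1 or KO_sg4 replicate 1. All KO_sg4 values lay below all KO_sg1 values for 3 genes (16.7% of all genes) and above them for 0 (16.4%).

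KD was also set against the mean of both knockout groups, which shares the KD libraries with the comparison to WT. Of 59 genes 49 were lower (83.1%, against 40.4% of all genes) and 3 higher (5.08%, against 42.9%), with a median log2 fold change of -1.84. All 5 H1 genes, 9 of 16 H2A, 12 of 13 H2B, 11 of 12 H3 and 12 of 13 H4 genes were lower. Hist1h2bj was among them (log2 fold change -2.66 ± 0.37, adjusted p = 1.11e-05), as were Hist1h4d (log2 fold change -2.46 ± 0.44, adjusted p = 0.000113) and Hist1h3f (log2 fold change -2.80 ± 0.53, adjusted p = 0.000198). The largest falls were in Hist1h4j (-3.71), Hist1h2bf (-3.70), Hist1h2bl (-3.30), Hist1h3i (-3.25), Hist2h2bb (-3.12) and Hist1h2ai (-2.96). With the covariate Hist1h2bl (-0.59, adjusted p = 0.736), Hist1h3i (-2.05, adjusted p = 0.112) and Hist1h2ai (-1.79, adjusted p = 0.0574) lost their calls. That of Hist1h2bl was also lost when KD replicate 2 or 3 was left out. The other genes named here as lower kept theirs in every setting run. The higher genes were Hist2h2be (log2 fold change 0.99 ± 0.11, adjusted p = 1.03e-06), Hist3h2a (log2 fold change 0.93 ± 0.10, adjusted p = 1.08e-06) and Hist2h3c1 (log2 fold change 0.82 ± 0.32, adjusted p = 0.0303). The call of Hist2h3c1 was lost without KD replicate 1 (0.51, adjusted p = 0.221) and without KO_sg1 replicate 2 or 3 or KO_sg4 replicate 3 (adjusted p 0.0556 to 0.065). All KD values lay below all knockout values for 34 genes (35.6% of all genes) and above them for 2 (36.1%). With the covariate 16 were lower and 5 higher (36.1% and 38.3% of all genes).

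Genes that work with the histone genes were counted in lists. Over all genes tested, 40.4% were lower and 37.2% higher in KD than in WT, 21.9% lower and 16.9% higher in KO_sg1, and 22% lower and 18% higher in KO_sg4, and each count below stands beside these shares. Of 20 genes of S phase, such as replication factors and nucleotide enzymes, 19 were lower in KD than in WT, with a median log2 fold change of -0.79; Mcm6, a subunit of the replicative helicase, had -0.96. In KO_sg1 12 of the 20 were higher and 1 lower (median 0.19), and in KO_sg4 12 were higher and 2 lower (median 0.23). Of 19 tested histone chaperones, 17 were lower in KD and 2 higher, among them Rbbp4 (-1.17) and Nasp (-1.11), which hold H3 and H4. Of 9 tested replacement histone genes 5 were lower and 1 higher in KD; H3f3a and H3f3b, the genes of H3.3, had log2 fold changes of -1.10 ± 0.06 and -0.84 ± 0.05, and Cenpa, the centromeric H3, -0.66 ± 0.07. In each knockout group 1 of the 9 was higher and 1 lower, the lower being H1f0 in both.

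Factors that form the ends of histone mRNAs or drive their transcription numbered 18, with 11 lower and 3 higher in KD (against 40.4% and 37.2% of all genes). Slbp, the stem-loop binding protein, had a log2 fold change of -0.76 ± 0.05 and Lsm10, part of the U7 particle that guides the cleavage, -0.91 ± 0.12. Hinfp, an activator of H4 genes, was higher (0.82 ± 0.09). In KO_sg1 4 of the 18 were higher and 2 lower (against 16.9% and 21.9% of all genes), with Hinfp at 0.58 ± 0.09, and in KO_sg4 7 were higher and 2 lower, with Slbp at 0.39 ± 0.05. Of 12 genes of histone mRNA decay 7 were lower in KD (against 40.4% of all genes), including Eri1, the nuclease that trims the stem-loop's end, at -1.13 ± 0.08; 4 were higher in KO_sg1 and 2 in KO_sg4 (against 16.9% and 18% of all genes).

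Of 6 tested RNAs without a poly(A) tail, 3 were lower and 2 higher in KD, and 1 was higher in KO_sg1. Rpph1, the RNA of RNase P, had 3.03, 1.70 and 2.66 CPM in KD, 285, 234 and 356 in KO_sg1, 112, 221 and 192 in KO_sg4 and 130, 136 and 146 in WT. The KD values were the lowest of all by a wide margin (log2 fold change -5.78 ± 0.28 against WT). In KO_sg1 it was higher than in WT (1.08 ± 0.20), and those groups did not overlap. Unlike Rn45s, Rpph1 was nearly level within WT, where the histone sum ran from 121 to 220 CPM. Rmrp, another of these RNAs, had the same order of libraries as Rn45s within every group. It had 7.93, 1.004 and 17.2 CPM in WT and 9.54, 15.5 and 2.89 in KO_sg4. In KO_sg1 it had 13.5, 15.7 and 25.99 CPM, and in KD 2.497, 0.151 and 3.58.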

How the data were processed

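RNA was prepared on RNeasy columns and libraries with a TruSeq mRNA kit, per the labels' protocols. The authors deposited estimated counts per gene, made with RSEM 1.2.12 and Bowtie 1.0.1 on mm9, per the submitters' processing notes; the annotation, the strand setting and the length of the reads are not stated in the sources used here. RSEM divides reads that match several copies, so single histone genes with close copies are uncertain. The counts were rounded to whole numbers, filtered with filterByExpr (minimum count 10), scaled with TMM and fitted with edgeR 4.0.16 (R 4.3.3) by the quasi-likelihood test in one model of 12 libraries and 4 group means. P-values were two-sided and Benjamini-Hochberg adjusted over 12335 genes; a gene was called at an adjusted p under 0.05. The sign ± precedes the standard error of a log2 fold change, and the SD of a level. The fit was also run on simulated counts with independent libraries and a common spread for all genes. That run does not bear on calls of histone genes, which varied together with Rn45s within groups. DESeq2 1.42.0 and limma 3.58.1 (voom) were alternatives.

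The histone genes, gene lists and tests were chosen with earlier results of these data known. Values in every library are given for the 2 genes of each type with the highest mean level. Up to 6 genes called higher and 6 lower per comparison, those with the largest changes, are also given. For several of these, only the values in KD and WT or in KO_sg1 and WT are printed. Also given are 5 genes known to give polyadenylated mRNA (Hist1h1c, Hist1h2bc, Hist2h2be, Hist3h2a and Hist4h4). Hist1h2bk was added later. Replicate libraries differed by more than sampling noise (chi-square per degree of freedom 3.38 to 64.1 over 12 pairs). The 18 pairs of libraries sharing a number had correlations of deviations from -0.540 to 0.179, so the numbers were not used as pairs. Some genes of the companion lists are not reported here.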

Additional observations from a re-analysis of the deposited data

Results flagged for a closer look

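The guides differed from each other for 2 histone genes, by the direct test of KO_sg4 against KO_sg1: Hist1h4n had a log2 fold change of -2.40 and Hist1h2ae one of -0.65. Hist1h4n shares 85.6% of its windows with other histone genes, and the part of read division in its value was not tested. The direct test of KD against the mean of the knockout groups gave a difference for more of the family, with 3 of 59 histone genes higher in KD and 49 lower. For these results the share of Rn45s also differed between the libraries, with 0.665% to 1.28% of counts in KD libraries, 3.57% to 6.40% in the KO_sg1 libraries and 1.22% to 4.36% in the KO_sg4 libraries; its part in them was not tested beyond the covariate fit.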

How the results depend on the processing

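The family sums were recomputed with RLE factors, with library totals, with library sizes without RNA lacking a poly(A) tail, and with each library left out. They kept their direction and stayed within the spread of replicates, apart from leaving out single libraries for KO_sg4 against WT. There the log2 ratio ran from -0.19 (without KO_sg4 replicate 2) to 0.36. The sums were not recomputed with the covariate or in the low-Rn45s libraries. Counts of histone genes called are given next as higher and lower. With the covariate for RNA lacking a poly(A) tail, they were 3 higher for KO_sg1 against WT (9 in the main analysis), 3 higher for KO_sg4 against WT (0), 5 higher and 10 lower for KD against WT (2 and 33), 1 higher for KO_sg4 against KO_sg1 (0) and 5 higher and 16 lower for KD against the knockouts (3 and 49). In the libraries with under 1.5% Rn45s, a choice made after seeing the data, KD against WT gave 6 and 17. KO_sg4 against WT is there 1 library against 1, with the spread taken from KD alone, so its 7 higher and 4 lower describe those libraries and do not test the groups. For KO_sg1 against WT, 21 were higher with no filter beyond 1 count, 16 by limma-voom and 26 when only the groups compared were fitted, and 1 was lower in that fit and with library totals. For KO_sg4 against WT, 1 was higher by limma-voom and in the fit of only those groups; 0 were lower in that fit and with RLE factors, and 3 with no filter. KD against WT gave 4 higher with library totals. KO_sg4 against KO_sg1 gave 5 lower with no filter and 4 by DESeq2. The causes were not tested.

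Leaving out each library in turn gave 5 to 26 higher and 0 to 1 lower for KO_sg1 against WT, 0 to 2 and 0 to 3 for KO_sg4 against WT, 2 to 3 and 18 to 40 for KD against WT, 0 higher and 1 to 23 lower for KO_sg4 against KO_sg1, and 2 to 4 and 46 to 50 for KD against the knockouts. With the replicate number as a block, 8 were higher for KO_sg1 against WT, 0 lower for KO_sg4 against WT, and 2 higher and 32 lower for KD against WT. Over the genes named, 54 results were recomputed in 1204 values, of which 1096 kept direction and call, 106 kept direction without the call and 2 turned: Hist1h2ak in KD against the knockouts was 0.80 with the covariate, and Hist2h2bb in KD against WT 0.41 in the libraries with little Rn45s. Library totals without factors put the median of all genes at 0.21 for KD against WT, 0.29 for KD against the knockouts and 0.13 for KO_sg4 against KO_sg1, and the share of calls that were higher to 59.7%, 62.7% and 72.9%, from 47.9%, 51.5% and 50.6%; for KO_sg1 against WT that share was 30%, from 43.5%. Genes with few counts, such as Hist1h2bf and Hist1h2bl in KD, are limited by depth.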

Other observations

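Some histone genes were near 0 or behaved as copies that share reads. The testis-specific genes Hist1h1t, Hist1h2aa and Hist1h2ba had 2, 1 and 0 counts over all 12 libraries. Hist1h2bq and Hist1h2br had identical values in every library, 88 counts each in total. Hist1h2ah, an H2A gene, had 5.09, 3.02 and 1.84 CPM in KD, 0, 0 and 2.45 in KO_sg1, 3.00, 0.147 and 0.918 in KO_sg4 and 0, 1.54 and 5.2 in WT. Replicates of 1 group thus ranged from 0 to several CPM for this gene, in libraries where the H2A sum differed far less.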
